A study of Mus musculus with 14 samples.

Results

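The 5 genes described here encode folding chaperones and disulfide isomerases of the endoplasmic reticulum: Hsp90b1, Hspa5, Calr, Pdia3 and Pdia4. They were taken by their mouse symbols from the deposited table of normalized read counts, where all 5 were found among 11288 genes, and all 5 were high enough to be tested. The study sequenced polyadenylated RNA of neutrophils that were sorted by Ly6G staining after red cell lysis. The blood donors were male C57BL/6 mice, 7 to 10 weeks old, and the title names time of day and the loss of Cxcr2, Cxcr4 or Arntl as what was compared. It gave 14 libraries in 5 groups, with 4082276 to 6678645 recovered reads per library.

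CXCR4 f/f x Mrp8Cre mice (the Cxcr4 mutants) gave 3 libraries, CXCR2 f/f x Mrp8Cre mice gave 2 and BMAL f/f x Mrp8Cre mice, in which the clock gene Arntl is floxed, gave 3. All 8 were taken at zeitgeber time (ZT) 5, which the labels place at a clock time of 12 h. Mice labelled wild-type (WT), with no Cre named, gave 3 libraries at ZT13, a clock time of 20 h, and 3 at ZT5. Mrp8Cre is a Cre recombinase driven by a promoter active in neutrophils and their precursors. Every mutant group carries it and no WT label names it, so an effect of the Cre cannot be told apart from that of a deletion in any comparison with WT. The labels do not say that replicates came from separate animals, so the p-values measure the spread between these samples. In sorted bulk samples, fewer cells of a type and less RNA per cell cannot be told apart.

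Proteins bound for the cell surface, for secretion or for granules fold in the endoplasmic reticulum. Hspa5 (BiP) holds unfolded chains, Hsp90b1 (gp96 or GRP94) finishes the folding of a small set of clients such as Toll-like receptors and integrins, Calr (calreticulin) retains glycoproteins that carry a glucose-tagged glycan, and Pdia3 (ERp57, the partner of Calr) and Pdia4 (ERp72) form and shuffle disulfide bonds. When unfolded protein accumulates, the sensors Atf6, Ern1 and Eif2ak3 start the unfolded protein response, in which ATF6 and XBP1 act on these genes through an endoplasmic reticulum stress response element (ERSE), a CCAAT box and a CCACG box a fixed distance apart.

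The promoters of the 5 genes were searched for that element. The promoter windows, RefSeq sequence from 250 bases before to 50 bases after the transcription start on GRCm38.p6, were searched on both strands for the element, CCAAT and CCACG with 9 bases between them. It occurred in 39 of 32851 mouse promoter windows (0.119%), and in those of 3 of the 5 members. Hsp90b1 and Hspa5 are printed over the full window, to set the gene with 2 matches beside the one with 1 match nearest to the start. Capitals mark each match on the strand of the gene, so that a match on the opposite strand reads as its reverse complement.
Hsp90b1 (chr10:86705395-86705694, minus strand): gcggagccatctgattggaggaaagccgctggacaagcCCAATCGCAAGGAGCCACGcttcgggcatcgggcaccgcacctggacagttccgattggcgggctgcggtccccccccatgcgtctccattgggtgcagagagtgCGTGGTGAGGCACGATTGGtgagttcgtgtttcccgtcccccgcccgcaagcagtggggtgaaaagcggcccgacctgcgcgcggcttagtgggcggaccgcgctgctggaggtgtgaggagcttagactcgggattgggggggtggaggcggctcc
Hspa5 (chr2:34771840-34772139, plus strand): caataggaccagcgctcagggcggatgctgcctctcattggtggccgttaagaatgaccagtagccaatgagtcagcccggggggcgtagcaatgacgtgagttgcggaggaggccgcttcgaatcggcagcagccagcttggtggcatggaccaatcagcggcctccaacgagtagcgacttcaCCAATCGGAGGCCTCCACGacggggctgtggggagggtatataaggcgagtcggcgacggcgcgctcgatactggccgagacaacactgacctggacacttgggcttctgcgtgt
Counted from the transcription start, the matches in Hsp90b1 lay at -212 to -194 on the strand of the gene and at -107 to -89 on the opposite strand. In Hspa5 the match lay at -65 to -47 on the strand of the gene. Calr had 1 match, on the opposite strand, at -162 to -144. It is shown with its flanks.
Calr (chr8:84847045-84847124, minus strand): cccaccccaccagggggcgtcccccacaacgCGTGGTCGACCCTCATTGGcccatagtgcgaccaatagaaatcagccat
Pdia4 and Pdia3 did not hold the full element in this window. Without its last base, as CCAAT and CCAC with the same spacer, a form chosen after the full search that also takes every full match, the element occurred in 120 windows (0.365%) and in all 5 members. Pdia4 held it at -107 to -90 on the opposite strand, and Pdia3 at -29 to -12 on the strand of the gene. Both are shown around this shorter match.
Pdia4 (chr6:47813572-47813651, minus strand): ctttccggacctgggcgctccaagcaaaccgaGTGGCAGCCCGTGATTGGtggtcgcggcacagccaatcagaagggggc
Pdia3 (chr2:121413841-121413920, plus strand): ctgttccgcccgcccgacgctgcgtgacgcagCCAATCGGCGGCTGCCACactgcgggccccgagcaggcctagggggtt
ERSE-II, which is ATTGG and CCACG with 1 base between them (in 0.0365% of windows), and TGACGTGG (the XBP1 element, in 0.676%) were found in none of the 5. A match describes letters in a window and not a site in use.

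**Figure D1:**
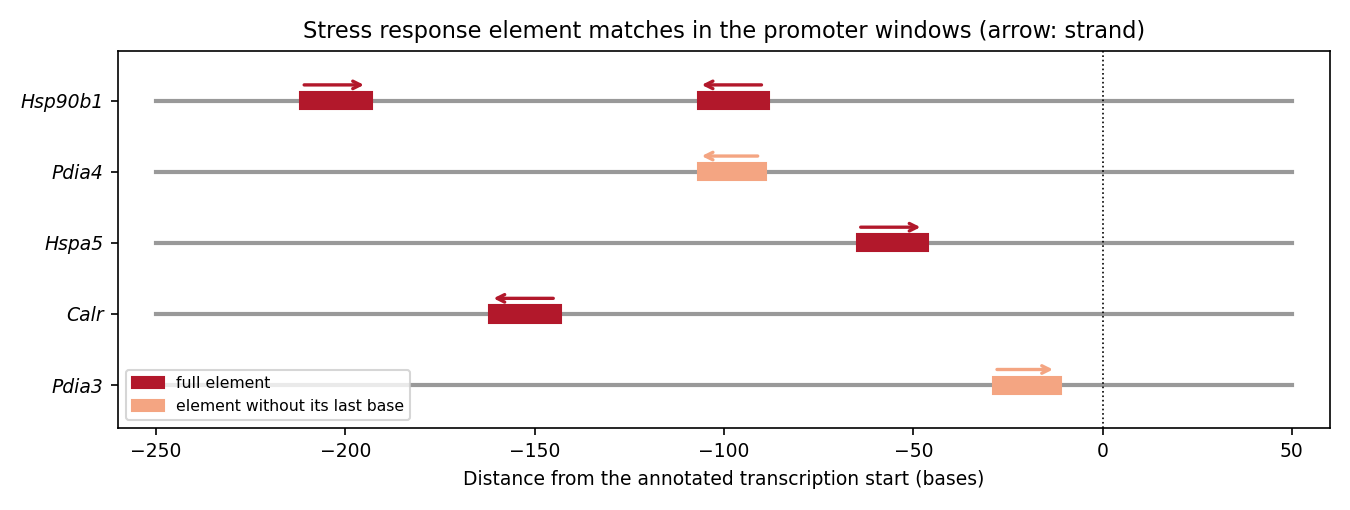
Position of stress response element matches in the 5 promoter windows, as distance in bases from the RefSeq transcription start (dotted line), with arrows for the strand that reads CCAAT first. Red boxes are the full element, of which Hsp90b1 has 2 and Hspa5 and Calr 1 each, and light boxes are the element without its last base, in Pdia4 and Pdia3.

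The targeted genes and the markers of other cells were looked at first. Cxcr4 stood at 26.2, 13.2 and 17.9 normalized read counts in the Cxcr4 mutants, against 268 to 553 in WT ZT5. Cxcr2, counted over the whole gene, stood at 1354 and 1439 in the Cxcr2-labelled libraries, against 1321 to 2219 in WT ZT5, and Arntl had at most 100 reads in any library, so these 2 groups are called here the Cxcr2-labelled and the Bmal1-labelled libraries. Summed B cell markers (14 of 16 in the table) ranged from 124 to 227 in the Cxcr4 mutants, 290 to 326 in the Cxcr2-labelled libraries, 341 to 453 in the Bmal1-labelled libraries, 144 to 464 in WT ZT13 and 530 to 4189 in WT ZT5. WT ZT5 replicate 5 held the 4189 and stood apart from the rest. Of the 14 genes, 11 were lower in the Cxcr4 mutants than in WT ZT5, as were 4.15% of all tested genes. Cd79a and Ms4a1, which mark B cells, were at 0 in no library. Summed markers of late neutrophil precursors (6 of 6, among them Ltf, Camp and Ngp) ranged from 12936 to 20108 in the Cxcr4 mutants, 1387 to 2059 in the Cxcr2-labelled libraries, 1240 to 2023 in the Bmal1-labelled libraries, 1200 to 1675 in WT ZT13 and 704 to 1281 in WT ZT5. Summed monocyte markers (11 of 11) ranged from 680 to 702 in the Cxcr4 mutants, 692 to 763 in the Cxcr2-labelled libraries, 656 to 696 in the Bmal1-labelled libraries, 638 to 1025 in WT ZT13 and 1174 to 2121 in WT ZT5. This sum hides a split in the Cxcr4 mutants, where 8 of the 11 were lower than in WT ZT5 (4.15% of all tested genes). Ly6c2 alone was higher there, with a mean of 288 against 34.3, which raises their sum. Against WT ZT5, 3 of the 11 were lower in the Cxcr2-labelled libraries, where 0.453% of all tested genes were lower. In the Bmal1-labelled libraries 5 of the 11 were lower than in WT ZT5, where 1.02% of all tested genes were called in either direction. Summed red cell markers (7 of 7) ranged from 4165 to 13899 in the Cxcr4 mutants, 61700 to 66531 in the Cxcr2-labelled libraries, 59398 to 118739 in the Bmal1-labelled libraries, 28247 to 109868 in WT ZT13 and 21271 to 67152 in WT ZT5. Plasma cells, which are rich in these chaperones, had 3 of 9 markers in the table, and their sum reached 57.8 in WT ZT5 replicate 5 and 21.6 or less in every other library.

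Hsp90b1 (ENSMUSG00000020048, chromosome 10, 86690209 to 86705509, GRCm38) was lower in the Cxcr4 mutants and in the Cxcr2-labelled libraries than in WT ZT5. It had 39.5, 41.9 and 42.4 normalized read counts in the Cxcr4 mutants, 25.3 and 32.6 in the Cxcr2-labelled libraries, and 62.2, 42.6 and 75.0 in the Bmal1-labelled libraries. It had 77.2, 87.1 and 122 in WT ZT13 and 183, 106 and 98.9 in WT ZT5. All 8 mutant-labelled libraries lay below all 6 WT libraries, an order that 18 of 11255 tested genes shared (0.16%). Summed markers of mature neutrophils (9 of 9) split the same libraries, at 29171 to 37511 in the Cxcr4 mutants, 22899 to 26747 in the Cxcr2-labelled and 22545 to 23863 in the Bmal1-labelled libraries, against 16482 to 16875 in WT ZT13 and 10051 to 17928 in WT ZT5, and 5 of the 9 were higher in the Cxcr4 mutants than in WT ZT5. In that comparison 8.2% of all tested genes were called, 4.15% lower and the rest higher. The part of the mature neutrophil markers in the result was not tested.

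In group means, Hsp90b1 stood at 41.3 ± 1.53 in the Cxcr4 mutants and 129 ± 46.9 in WT ZT5 (SD, n = 3 each), which was 31.9% of the WT ZT5 level. The log2 fold change was -1.57 (limma, SE 0.30, adjusted p = 0.00101). The Cxcr2-labelled libraries averaged 29.0 ± 5.14 (SD, n = 2), which was 22.4% of the same WT ZT5 mean. Their log2 fold change was -2.07 (limma, SE 0.33, adjusted p = 0.00374). The Bmal1-labelled libraries averaged 59.9 ± 16.3 (SD, n = 3), with a log2 fold change of -1.08 that did not pass (95% interval -1.69 to -0.46, adjusted p = 0.0798). WT ZT13 averaged 95.3 ± 23.3 and its log2 fold change of -0.41 against WT ZT5 did not pass either (95% interval -1.02 to 0.21, adjusted p = 0.681). All 4 comparisons share the WT ZT5 libraries. A single test that the 5 group means are equal gave an adjusted p of 0.000319 for Hsp90b1.

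Without WT ZT5 replicate 5, the library rich in B cell markers, the log2 fold change of Hsp90b1 was -1.29 in the Cxcr4 mutants (adjusted p = 0.0121) and -1.79 in the Cxcr2-labelled libraries (adjusted p = 0.0198). The call in the Cxcr2-labelled libraries was lost without the Cxcr2-labelled replicate 4, at -1.90 (adjusted p = 0.0624), where 1 library stood for the group. The part of B cell, late precursor, monocyte and red cell markers in the result was not tested.

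**Figure D2:**
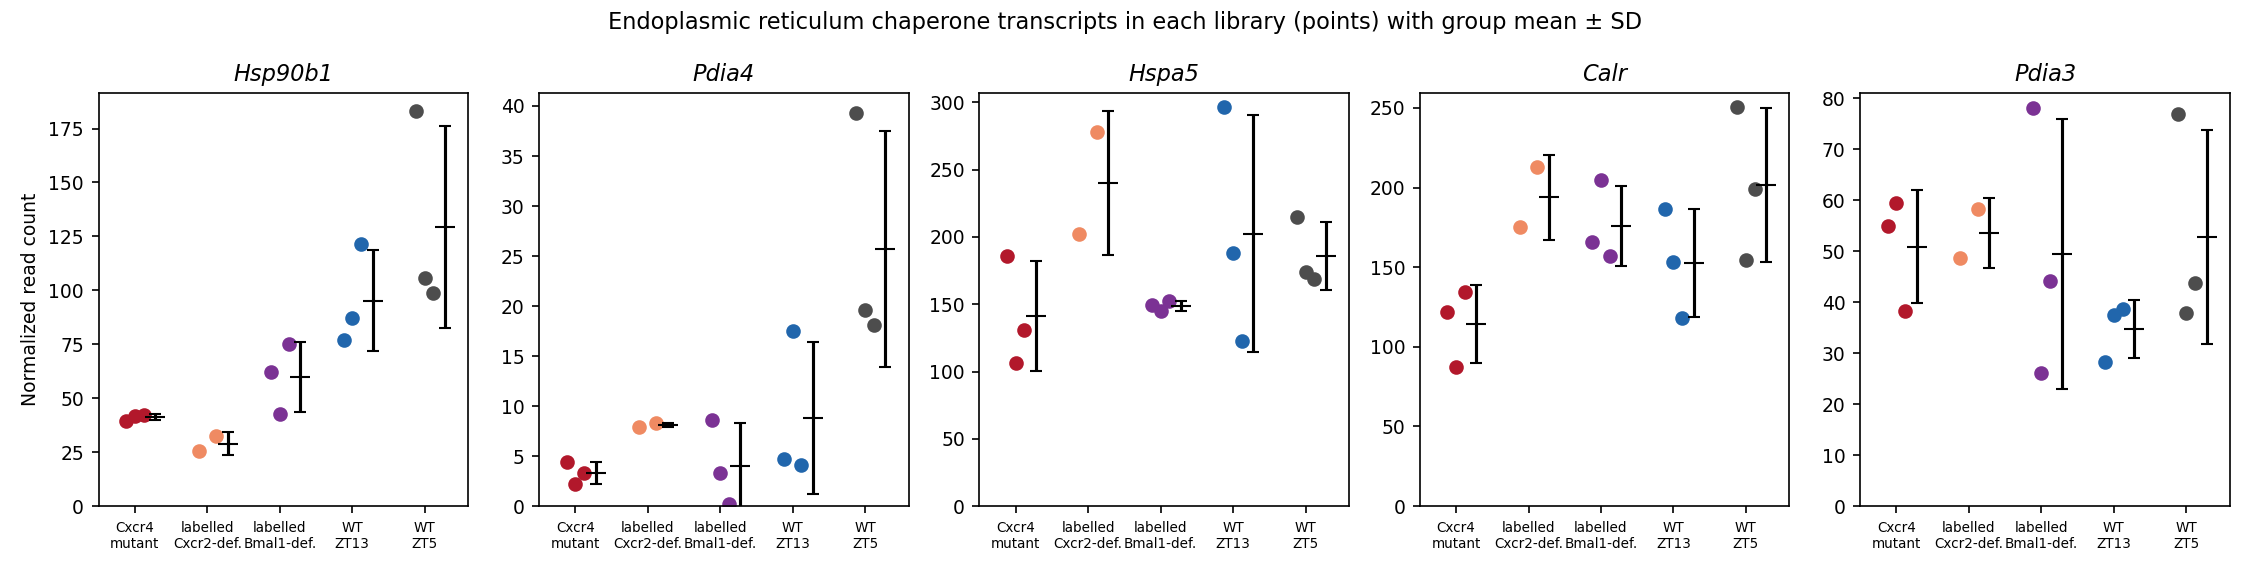
Normalized read count of each member in each of the 14 libraries (points) with the group mean ± SD beside them, for Cxcr4 mutants, Cxcr2-labelled libraries (n = 2), Bmal1-labelled libraries, WT ZT13 and WT ZT5 (n = 3 each). Hsp90b1 lies at 25.3 to 75.0 in the mutant-labelled libraries and at 77.2 to 183 in the WT libraries, whereas Hspa5 and Pdia3 overlap across most groups.

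Hspa5 (ENSMUSG00000026864, chromosome 2, 34771970 to 34777547), the major Hsp70 of the compartment, was not called in any comparison. It had 186, 107 and 131 in the Cxcr4 mutants, 203 and 278 in the Cxcr2-labelled libraries, and 149, 145 and 152 in the Bmal1-labelled libraries. It had 297, 188 and 123 in WT ZT13 and 215, 174 and 169 in WT ZT5. The WT ZT13 libraries alone spanned nearly the whole range of the 14, and only the Bmal1-labelled libraries did not overlap with WT ZT5, below which they lay. The log2 fold change against WT ZT5 was -0.42 in the Cxcr4 mutants (95% interval -0.96 to 0.11), 0.36 in the Cxcr2-labelled libraries (95% interval -0.24 to 0.96) and -0.31 in the Bmal1-labelled libraries (95% interval -0.84 to 0.22). For WT ZT13 it was 0.04 (95% interval -0.49 to 0.57), and the adjusted p-values of the 4 ran from 0.382 to 0.983.

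Hsp90b1 and Hspa5 are commonly raised together in the unfolded protein response, but over these 14 libraries their log2 levels had a Pearson r of 0.00 (Spearman rho -0.02). Divided by exon length, the ratio of Hsp90b1 to Hspa5 was 0.223, 0.412 and 0.339 in the Cxcr4 mutants, 0.131 and 0.123 in the Cxcr2-labelled libraries, and 0.438, 0.308 and 0.517 in the Bmal1-labelled libraries. It was 0.273, 0.487 and 1.04 in WT ZT13 and 0.896, 0.638 and 0.614 in WT ZT5. The Cxcr2-labelled libraries thus had the lowest ratios of the 14, with Hspa5 above and Hsp90b1 below the WT ZT5 mean, and the WT ZT13 libraries ran from the level of the mutants to the highest ratio of all. The closest pair of members was Hspa5 and Calr, with a Pearson r of 0.67 (rho 0.60), and Hsp90b1 and Pdia4 had 0.45 (rho 0.45). These correlations are descriptions over 14 libraries that share group structure and depth.

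Calr (ENSMUSG00000003814, chromosome 8, 84841850 to 84846934) was lower in the Cxcr4 mutants than in WT ZT5. It had 122, 87.1 and 134 in the Cxcr4 mutants, 175 and 213 in the Cxcr2-labelled libraries, and 166, 205 and 157 in the Bmal1-labelled libraries. It had 186, 153 and 118 in WT ZT13 and 251, 155 and 199 in WT ZT5. The Cxcr4 mutants lay below every other ZT5 library, but overlapped with WT ZT13. Their mean of 114 ± 24.5 against 202 ± 48.2 in WT ZT5 (SD, n = 3 each) was 56.8% of the WT ZT5 level, a log2 fold change of -0.81 (limma, SE 0.23, adjusted p = 0.0302). The call was lost without WT ZT5 replicate 5 (log2 -0.64, adjusted p = 0.146) or replicate 9 (adjusted p = 0.0785), and without Cxcr4 mutant replicate 4 (log2 -0.62, adjusted p = 0.170) or replicate 2 (adjusted p = 0.0536). In the Cxcr2-labelled libraries the log2 fold change was -0.03 (95% interval -0.57 to 0.50) and in the Bmal1-labelled libraries -0.18 (95% interval -0.66 to 0.30). Set against the Cxcr2-labelled libraries, the Cxcr4 mutants were lower by a log2 of -0.77, which did not pass (95% interval -1.31 to -0.24, adjusted p = 0.101).

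Pdia3 (ENSMUSG00000027248, chromosome 2, 121413775 to 121438687), the isomerase that works on glycoproteins held by Calr, showed no called difference. It had 54.9, 59.4 and 38.3 in the Cxcr4 mutants, 48.7 and 58.3 in the Cxcr2-labelled libraries, and 78.2, 26.0 and 44.2 in the Bmal1-labelled libraries. It had 28.3, 37.4 and 38.7 in WT ZT13 and 76.9, 37.8 and 43.7 in WT ZT5. Each of the other groups overlapped with WT ZT5, and the Bmal1-labelled libraries held both the lowest and the highest value. The log2 fold change of the Cxcr4 mutants against WT ZT5 was -0.01 (95% interval -0.76 to 0.75), and its correlation with Calr over the 14 libraries was 0.00.

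Pdia4 (ENSMUSG00000025823, chromosome 6, 47796141 to 47813430), an isomerase found in complexes with BiP and gp96, had the lowest counts of the 5 and the widest relative range. It had 4.39, 2.24 and 3.35 in the Cxcr4 mutants, 7.93 and 8.27 in the Cxcr2-labelled libraries, and 8.57, 3.35 and 0.174 in the Bmal1-labelled libraries. It had 4.71, 17.5 and 4.14 in WT ZT13 and 39.3, 19.6 and 18.1 in WT ZT5. The 3 WT ZT5 libraries were the highest of the 14, and each of the other 4 groups lay wholly below them. The value of 0.174 in Bmal1-labelled replicate 4 was 1 read, against 88 to 309 reads in WT ZT5.

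Against WT ZT5, the log2 fold change of Pdia4 was -2.57 in the Cxcr4 mutants (limma, SE 0.81, adjusted p = 0.0493), with a mean of 3.33 ± 1.08 against 25.7 ± 11.8 (SD, n = 3 each). This call lay at the threshold. It was lost with a pseudocount of 0.1 (adjusted p = 0.137), with edgeR on recovered reads (adjusted p = 0.104), with quantile normalization (adjusted p = 0.0600) and without any 1 of 12 of the 14 libraries (adjusted p from 0.0501 to 0.215, the highest without WT ZT5 replicate 5), while the log2 fold change stayed between -2.98 and -2.23. The other 3 comparisons with WT ZT5 did not pass, with log2 fold changes of -2.78 for the Bmal1-labelled libraries (adjusted p = 0.0964), -1.47 for the Cxcr2-labelled libraries (adjusted p = 0.506) and -1.62 for WT ZT13 (adjusted p = 0.485).

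**Figure D3:**
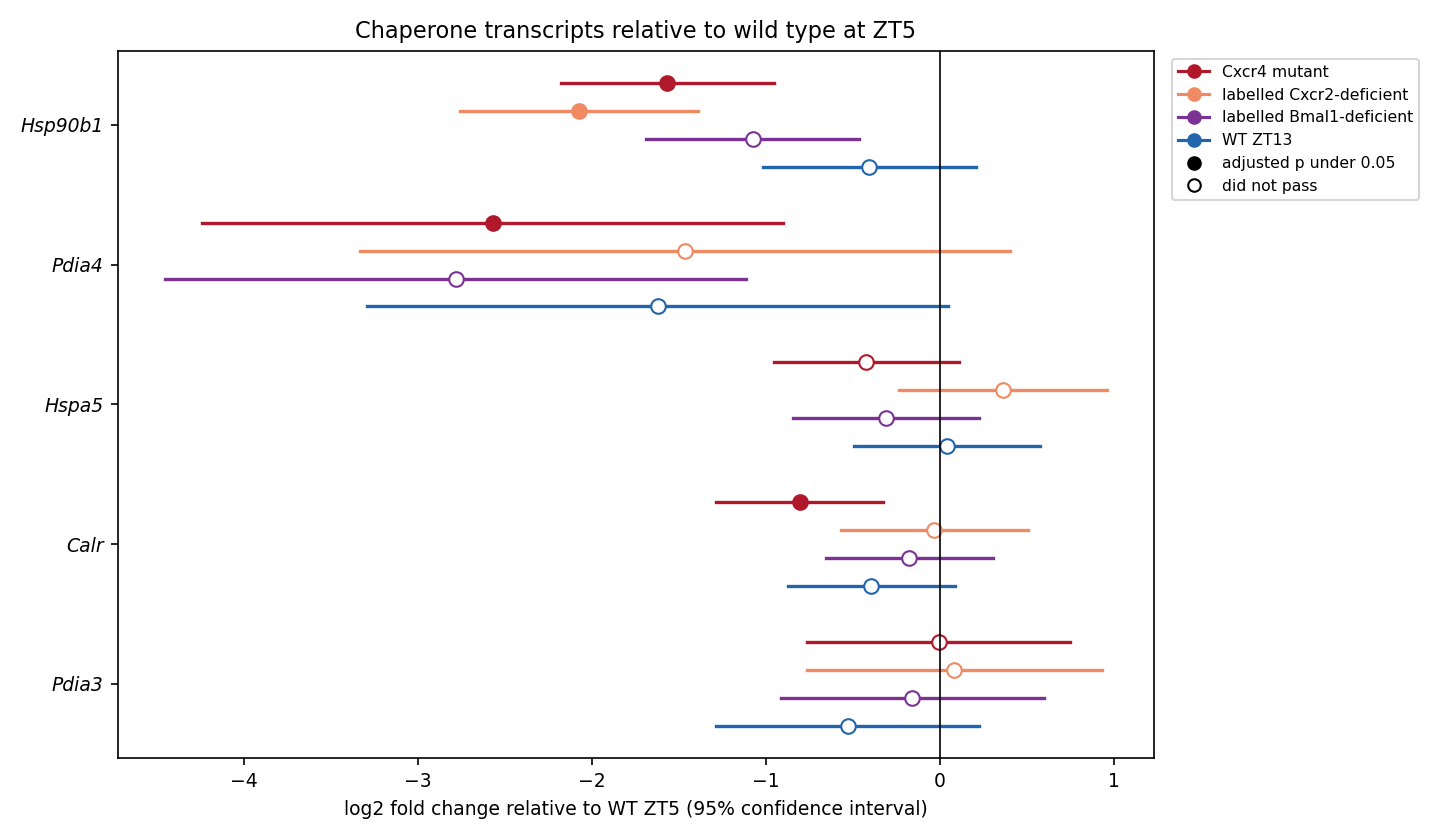
Log2 fold change of each member against WT ZT5 with its 95% confidence interval, for the Cxcr4 mutants, the Cxcr2-labelled libraries, the Bmal1-labelled libraries and WT ZT13. Filled points passed an adjusted p of 0.05: Hsp90b1 at -1.57 and -2.07, and Pdia4 at -2.57 and Calr at -0.81 in the Cxcr4 mutants.

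In counts, 3 of the 5 members were lower in the Cxcr4 mutants than in WT ZT5 and none was higher, where 8.2% of all tested genes differed (4.15% lower). Without WT ZT5 replicate 5 or 9, or without Cxcr4 mutant replicate 2 or 4, 1 of the 5 remained called, Hsp90b1. In the Cxcr2-labelled libraries 1 member was lower (0.666% of all genes called, 0.453% lower). None of the 5 was called in the Bmal1-labelled libraries (1.02% of all genes), or in WT ZT13 (0.08% of all genes). Among the mutant groups none was called between Cxcr4 and Cxcr2-labelled (4.13% of all genes), Cxcr4 and Bmal1-labelled (5.7%) or Bmal1-labelled and Cxcr2-labelled libraries (0.133%). Over all 5 groups, 1 of 5 was called, Hsp90b1, where 7.85% of genes were. The groups did not overlap, with the first lower, for 3 members between the Cxcr4 mutants and WT ZT5 (14.1% of all genes), 2 between the Cxcr2-labelled libraries and WT ZT5 (17.1%), 3 between the Bmal1-labelled libraries and WT ZT5 (10.3%) and 1 between WT ZT13 and WT ZT5 (8.9%). The median log2 fold change of the 5 in the Cxcr4 mutants was -0.81, beside -0.11 over all tested genes. It was -0.03 in the Cxcr2-labelled libraries, beside -0.07 over all genes. In WT ZT13 it was -0.41, beside -0.07, and in the Bmal1-labelled libraries -0.31, beside -0.10. Of the 5 members, 5 were negative in the Cxcr4 mutants, 5 in the Bmal1-labelled libraries, 4 in WT ZT13 and 3 in the Cxcr2-labelled libraries.

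No difference between mutant groups passed for any member. Hsp90b1 was 2.07 times as high in the Bmal1-labelled as in the Cxcr2-labelled libraries and the groups did not overlap, but its log2 difference of 1.00 did not pass (95% interval 0.31 to 1.68, adjusted p = 0.356). Hspa5 had a log2 difference of -0.78 between the Cxcr4 mutants and the Cxcr2-labelled libraries (95% interval -1.38 to -0.19, adjusted p = 0.143), again without overlap. Between the Cxcr4 mutants and the Cxcr2-labelled libraries 3 members lay apart on the low side and 1 on the high side (16.7% and 16.8% of all genes). Between the Cxcr4 mutants and the Bmal1-labelled libraries 2 lay apart on the low side (11% of all genes), and between the Bmal1-labelled and the Cxcr2-labelled libraries 1 on each side (11.3% lower and 10.4% higher).

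Per kilobase of exon, the mean level over the 14 libraries was highest for Calr (57.6), followed by Hspa5 (42.5), Hsp90b1 (18.3), Pdia3 (15.3) and Pdia4 (4.22). On this scale Calr stood above 94.0% of the genes in the table and Pdia4 above 50.9%. Calr exceeded Hspa5 per kilobase in 12 of the 14 libraries, so the order of these neighbours was not fixed, and Hsp90b1 and Pdia3 overlapped in level as well. The summed level of the 5 per kilobase was 115, 85.7 and 102 in the Cxcr4 mutants, 134 and 170 in the Cxcr2-labelled libraries, and 137, 126 and 123 in the Bmal1-labelled libraries. It was 165, 138 and 114 in WT ZT13 and 224, 141 and 155 in WT ZT5. Hsp90b1 made up 8.50% to 12.1% of this sum in the Cxcr4 mutants, 4.70% and 4.76% in the Cxcr2-labelled libraries and 15.8% to 20.3% in WT ZT5.

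Beyond the 5, 72 other genes of the compartment were listed by role, of which 64 were tested and the rest were not analysed here. In the Cxcr4 mutants 6 of the 64 were lower and 2 higher than in WT ZT5, with a median log2 fold change of -0.32. Over all tested genes 8.2% were called, 4.15% lower, and the median was -0.11. The median of the 64 against WT ZT5 was -0.25 in the Cxcr2-labelled libraries, -0.20 in WT ZT13 and -0.12 in the Bmal1-labelled libraries. Over all tested genes it was -0.07, -0.07 and -0.10. Of the 64, 43 were negative in the Cxcr4 mutants, 43 in the Cxcr2-labelled libraries, 40 in WT ZT13 and 38 in the Bmal1-labelled libraries. Among co-chaperones of BiP, 2 of 8 were lower: Hyou1, a nucleotide exchange factor, had 18.6, 2.85 and 10.8 in the Cxcr4 mutants against 44.1, 25.3 and 29.3 in WT ZT5 (log2 -1.78, adjusted p = 0.0482). Sec63, which brings BiP to the translocation channel, had 45.7, 35.0 and 52.1 against 102, 82.1 and 68.8 (log2 -0.91, adjusted p = 0.0425). Neither pair of groups overlapped, and both calls were lost without WT ZT5 replicate 5 (adjusted p = 0.201 and 0.181). The Hyou1 call was lost without any 1 of 10 of the 14 libraries (adjusted p from 0.0514 to 0.271, the highest without Cxcr4 mutant replicate 4, at a log2 of -1.12). It was lost as well with a pseudocount of 0.1 (adjusted p = 0.0600), quantile normalization (adjusted p = 0.0770), edgeR (adjusted p = 0.131) and DESeq2 (adjusted p = 0.0706). Sec63 was lost without any 1 Cxcr4 mutant or any other WT ZT5 library (adjusted p from 0.0507 to 0.174). Dnajc3, a J protein that binds BiP, did not pass (log2 -0.83, adjusted p = 0.152).

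In the lectin cycle, Canx (calnexin, the membrane-bound relative of Calr) was the 1 of 7 that was lower. It had 82.3, 62.0 and 71.4 in the Cxcr4 mutants against 217, 120 and 164 in WT ZT5, with no overlap. Its log2 fold change was -1.17 (limma, SE 0.24, adjusted p = 0.00255), and -0.96 without WT ZT5 replicate 5 (adjusted p = 0.0204). Uggt1, which re-tags unfolded glycoproteins for Calr and Canx, stood at 106 ± 11.7 in the Cxcr4 mutants and 116 ± 6.61 in WT ZT5 and did not pass (log2 -0.14, adjusted p = 0.825). Nor did Lman2, a cargo lectin (log2 0.03).

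None of 10 other disulfide isomerases and oxidases was called. P4hb, the founding protein disulfide isomerase, stood at 47.8 ± 11.1 in the Cxcr4 mutants and 86.5 ± 32.1 in WT ZT5 (log2 -0.79, adjusted p = 0.112), while the membrane-bound Tmx1 and Tmx3 had log2 fold changes of -0.34 and 0.05. Of 6 other folding factors none was called. They include Cnpy3, which assists gp96 with Toll-like receptors (32.4 ± 12.9 in the Cxcr4 mutants, 50.1 ± 0.148 in WT ZT5, log2 -0.70, adjusted p = 0.265), the prolyl isomerase Ppib (log2 -0.87) and the Hsp70 relative Hspa13 (log2 0.87).

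Of 11 genes of the unfolded protein response, 2 were lower and 1 was higher in the Cxcr4 mutants. Atf6, the sensor that becomes a transcription factor, had 43.9, 33.6 and 42.8 in the Cxcr4 mutants against 90.6, 78.1 and 103 in WT ZT5 (log2 -1.16, adjusted p = 0.0168). The call was lost without Cxcr4 mutant replicate 4 (adjusted p = 0.0778) or WT ZT5 replicate 9 (adjusted p = 0.0766). Ppp1r15a and Ppp1r15b, the stress-induced and the constitutive subunit that direct a phosphatase to eIF2α, moved in opposite directions.

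Ppp1r15a (GADD34) had 29.2, 34.6 and 26.6 in the Cxcr4 mutants, against 248 and 117 in the Cxcr2-labelled libraries, 125, 104 and 117 in the Bmal1-labelled libraries and 137, 102 and 104 in WT ZT5. The Cxcr4 mutants lay below every other library. The log2 fold change against WT ZT5 was -1.88 (limma, SE 0.28, adjusted p = 7.06e-05), and the Cxcr4 mutants were also lower than the Cxcr2-labelled (log2 -2.47, adjusted p = 1.2e-05) and the Bmal1-labelled libraries (log2 -1.91, adjusted p = 6.07e-05). Ppp1r15b (CReP) had 304, 307 and 298 in the Cxcr4 mutants, 79.3 and 104 in the Cxcr2-labelled libraries, 132, 114 and 170 in the Bmal1-labelled libraries and 190, 186 and 172 in WT ZT5. The Cxcr4 mutants lay above all other libraries and the Cxcr2-labelled ones below. Against WT ZT5 its log2 fold change was 0.73 in the Cxcr4 mutants (adjusted p = 0.0204) and -0.997 in the Cxcr2-labelled libraries (adjusted p = 0.0318). The difference in the Cxcr4 mutants was lost with quantile normalization (adjusted p = 0.0845), without any 1 Cxcr4 mutant and without WT ZT5 replicate 9 (adjusted p up to 0.0772). That in the Cxcr2-labelled libraries was lost with edgeR (adjusted p = 0.0795), without either Cxcr2-labelled library and without WT ZT5 replicate 5 or 9 (adjusted p up to 0.277). The difference between the Cxcr4 mutants and the Cxcr2-labelled libraries itself was 1.73 on the log2 scale (adjusted p = 1.27e-05). Xbp1, whose spliced product drives chaperone genes, stood at 96.0 ± 10.1 in the Cxcr4 mutants and 123 ± 47.3 in WT ZT5 and did not pass (log2 -0.28, adjusted p = 0.629).

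Of 17 genes of degradation and translocation 1 was lower, Sec61a1, the pore of the translocation channel (43.3 ± 15.7 in the Cxcr4 mutants, 86.6 ± 4.97 in WT ZT5, log2 -1.05, adjusted p = 0.0339). It was lost without any 1 of the 3 WT ZT5 libraries (adjusted p up to 0.102), without Cxcr4 mutant replicate 4 (adjusted p = 0.205) or 5 (adjusted p = 0.0666) and with edgeR (adjusted p = 0.0639). Os9 and Edem1, which mark misfolded glycoproteins for degradation, had log2 fold changes of -0.11 and 0.01. In peptide loading, where Calr and Pdia3 serve MHC class I, B2m was the 1 of 5 that was higher, at 826 ± 64.0 in the Cxcr4 mutants and 507 ± 77.2 in WT ZT5 (log2 0.71, adjusted p = 0.00697), a call lost with quantile normalization (adjusted p = 0.0596). Tapbp, which holds MHC class I for loading, had a log2 fold change of -0.38, and the peptide transporter Tap1 one of -0.25, and neither passed.

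**Figure D4:**
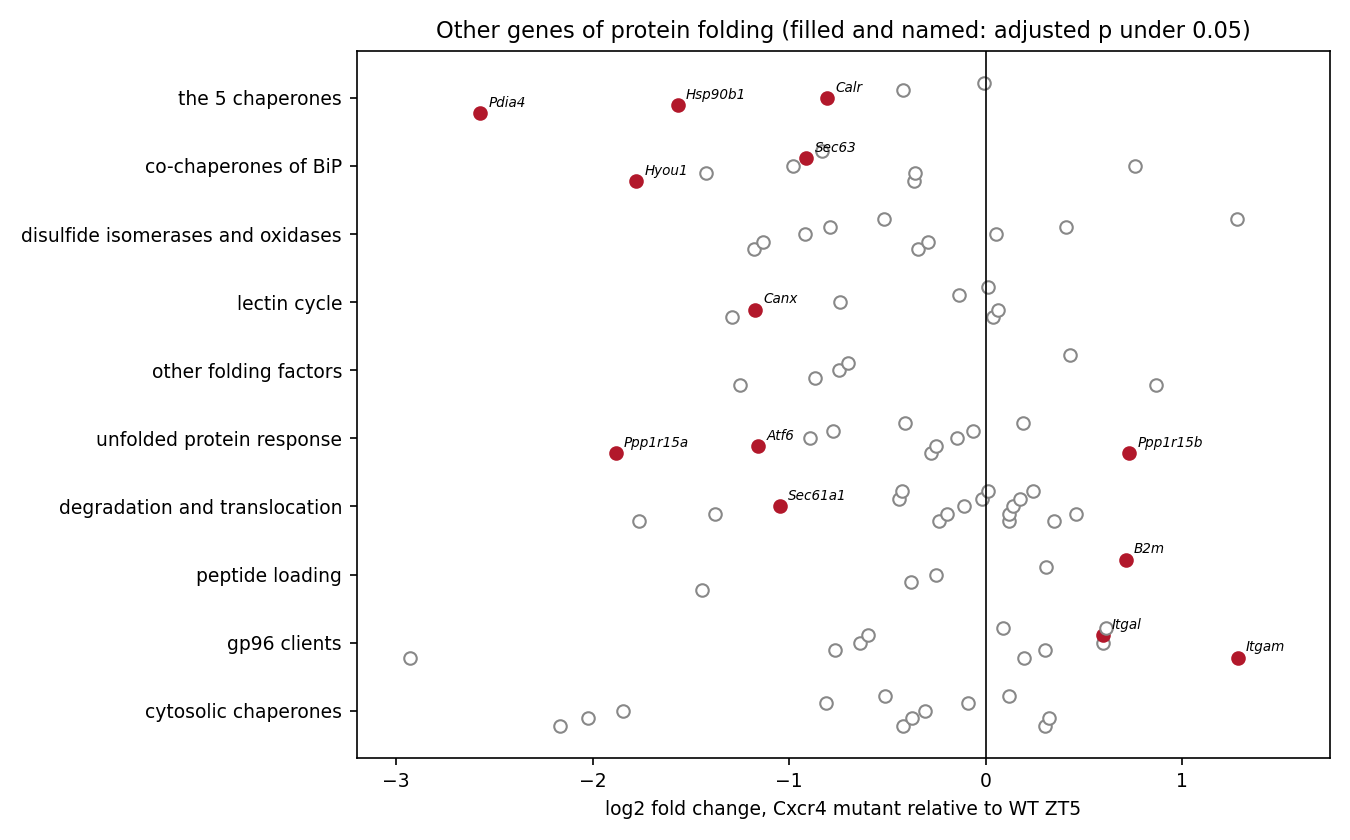
Log2 fold change of the 5 chaperones and of the other listed genes in the Cxcr4 mutants against WT ZT5, 1 row per list. Filled, named points passed an adjusted p of 0.05 over all genes; Canx at -1.17, Hyou1 at -1.78 and Ppp1r15a at -1.88 lie on the low side and Itgam at 1.28 on the high side.

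Among clients of gp96, 2 of 11 tested were higher and none was lower in the Cxcr4 mutants than in WT ZT5, 4 had a negative log2 fold change, and the median was 0.20. Over all tested genes 8.2% were called in this comparison, 4.15% lower and the rest higher, and the median was -0.11. Itgam, the αM chain of the integrin Mac-1, had 2493, 2751 and 2394 in the Cxcr4 mutants and 754, 1218 and 1241 in WT ZT5, without overlap (log2 1.28, SE 0.19, limma adjusted p = 6.18e-05). It was also higher in the Cxcr4 mutants than in the Cxcr2-labelled libraries (1323 and 1496, log2 0.85, adjusted p = 0.0172) and the Bmal1-labelled libraries (583 to 711, log2 1.94, adjusted p = 9.36e-08), the call against the Cxcr2-labelled libraries being lost without either Cxcr2-labelled library or Cxcr4 mutant replicate 4 (adjusted p up to 0.180). Itgal, the αL chain of LFA-1, stood at 1437 ± 59.2 in the Cxcr4 mutants and 968 ± 231 in WT ZT5 (log2 0.60, adjusted p = 0.0297), a call lost without WT ZT5 replicate 5 (adjusted p = 0.0933), without any 1 Cxcr4 mutant (adjusted p up to 0.106), with edgeR (adjusted p = 0.0547) and with quantile normalization (adjusted p = 0.122). Itga4 did not pass (log2 0.20). In the Cxcr2-labelled libraries, where Hsp90b1 was lowest, none of the 11 was called against WT ZT5, 4 were negative and their median log2 fold change was 0.36. In the Bmal1-labelled libraries none was called, 6 were negative and the median was -0.09. Transcript levels say nothing of how much client protein was folded.

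Of 12 chaperones of the cytosol and mitochondria none was called in the Cxcr4 mutants against WT ZT5. Hspa8 stood at 508 ± 104 in the Cxcr4 mutants and 417 ± 144 in WT ZT5 (log2 0.32), and its co-chaperone Dnaja1 at 234 ± 14.7 and 216 ± 31.4 (log2 0.12). The inducible Hspa1a was listed at 0 in all 3 Cxcr4 mutants, which allows up to 0.611 (3 reads) in a library, and also at 0 in all 3 Bmal1-labelled libraries. It had 2.79, 4.44 and 0 in WT ZT13 and 1.14, 3.38 and 8.65 in WT ZT5. The Cxcr4 mutants were lower than the Cxcr2-labelled libraries, which had 4.85 and 12.9 (limma adjusted p = 0.0491). This call was lost with the lower pseudocount, quantile normalization and edgeR (adjusted p up to 0.0995) and without any 1 of 11 libraries (adjusted p up to 0.309). Hspa1a and Hspa1b are near-identical, so reads of this pair are uncertain.

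Genes were ranked by how closely their pattern over the 14 libraries followed the mean of the 5 members, each standardized. The 2711 genes ranked were protein-coding, outside the 5 members and had a mean count of at least 50. Those with no symbol or only a Gm or Rik name were left out. Hnrnpa3, an RNA-binding protein, came first with a Pearson r of 0.87 (rho 0.87), followed by Akap8 (0.86) and Canx (0.85). Huwe1, Cpsf2, Rad23b, Malt1 and Serbp1 followed at 0.83 to 0.78. Without WT ZT5 replicate 5 and Cxcr4 mutant replicate 4, the libraries farthest out, r was 0.75 for Hnrnpa3, 0.66 for Canx and 0.29 for Malt1 over the remaining 12. Hnrnpa3 averaged 109 ± 32.1 in the Cxcr4 mutants, 142 ± 25.3 in the Cxcr2-labelled libraries, 151 ± 34.6 in the Bmal1-labelled libraries, 150 ± 7.74 in WT ZT13 and 246 ± 35.6 in WT ZT5.

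Hnrnpa3 and Canx were also among the 10 tested genes outside the 5 whose promoter window held the full stress element. Of those 10, these 2 were lower in the Cxcr4 mutants than in WT ZT5 (Hnrnpa3 log2 -1.21, adjusted p = 0.00113), 7 had a negative log2 fold change, and the median was -0.87. Over all tested genes 4.15% were lower in this comparison and the median was -0.11. Pdia6 and Dnajc3, folding genes with the element, had -1.13 and -0.83 and did not pass, and Syvn1, a ubiquitin ligase of the compartment with the element, had 0.14. In the Cxcr2-labelled libraries none of the 10 passed, 8 were negative and their median was -0.44. None passed in WT ZT13 either, where 8 were negative and the median was -0.56. The Bmal1-labelled libraries had none passing, 7 negative and a median of -0.65.

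**Figure D5:**
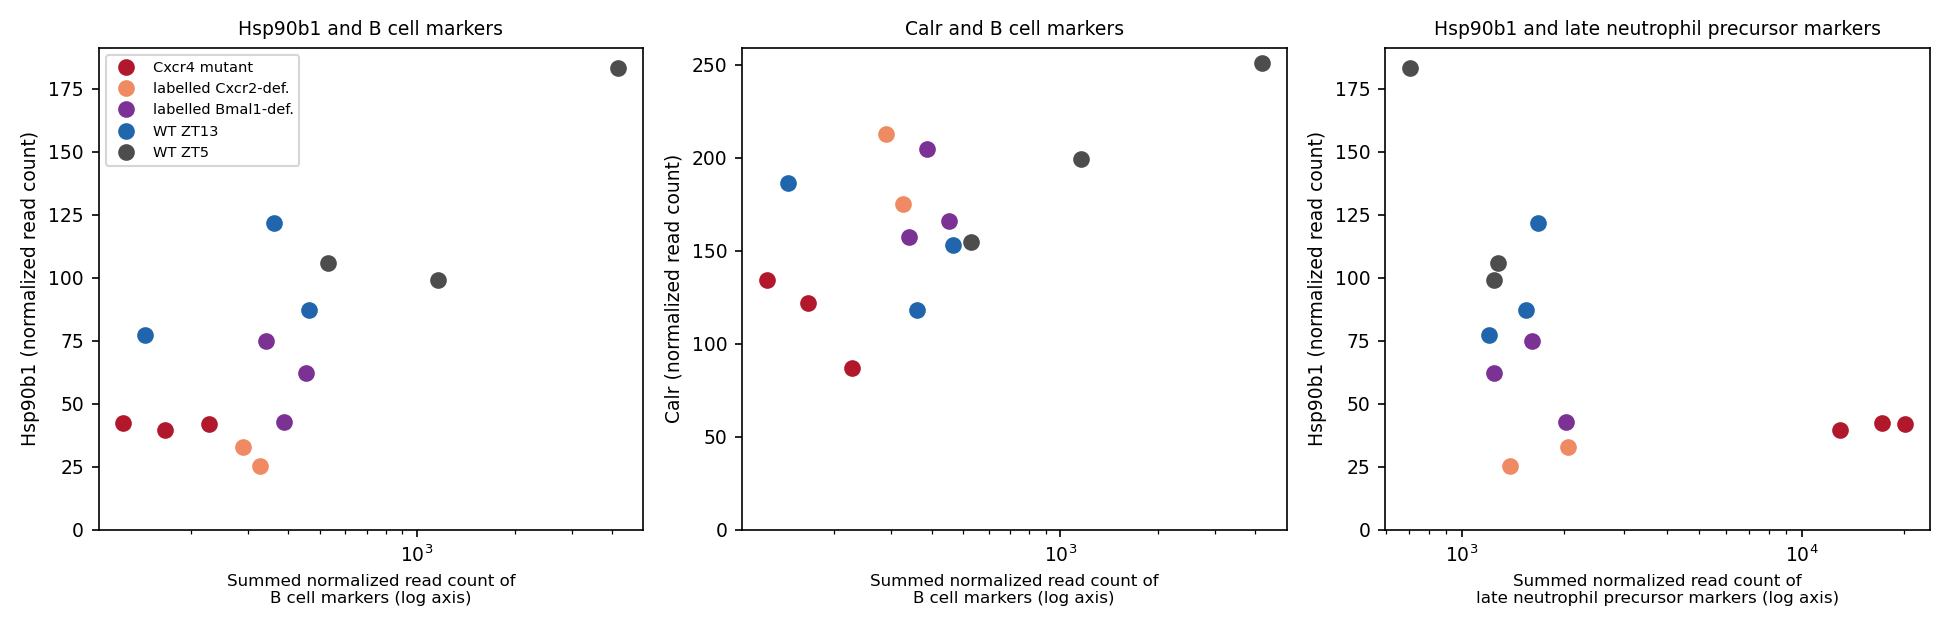
Hsp90b1 and Calr normalized read counts against the summed counts of B cell markers, and Hsp90b1 against those of late neutrophil precursor markers (log horizontal axes), 1 point per library. WT ZT5 replicate 5 has the highest B cell sum (4189) and the highest Hsp90b1 (183) and Calr (251), and the part of these markers in the differences was not tested.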

How the data were processed

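What the authors deposited is 1 table with a normalized signal value for each gene in each library. Per the submitters' processing notes, CASAVA 1.8.2, cutadapt and RSEM 1.2.3 were used with the mouse build GRCm38. How the values were normalized is not stated in the sources used here. Per the labels' protocols, RNA was amplified with the Ovation Single Cell kit. Within each library, all deposited values (100%) were multiples of the worth of 1 read, 0.127 to 0.244, to within 1e-06 reads, and whole reads were taken from them.

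Groups were compared with limma 3.58.1 (R 4.3.3), with an intensity trend on log2(value + 1), all 14 libraries in 1 fit, for 11255 genes with a mean of at least 1 (33 were below). Fold changes are on this scale, which understates those of low genes. Adjusted p-values are limma's, by Benjamini-Hochberg over all genes tested, called at 0.05; intervals are 95%. The fit was tested on simulated data. Gene positions and exon lengths are from GENCODE M21, matched to 11188 identifiers, and promoter sequences from RefSeq (GRCm38.p6).

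Named beside the members were the 3 targeted genes, the called genes of each list, filled to 3 by mean count, and the 8 genes of most like pattern; Xbp1, Pdia6 and Syvn1 were added after their values were seen. The members and lists were chosen with earlier results of these data known. Alternatives were another pseudocount, 2 filters, quantile normalization, edgeR 4.0.16 and DESeq2 1.42.0 on recovered reads, the replicate number as a block, and leaving out libraries singly. Reads amplified by PCR are not independent molecules, so floors cover counting error only.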

Additional observations from a re-analysis of the deposited data

How the results depend on the processing

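Hsp90b1 kept its direction and its call in the Cxcr4 mutants against WT ZT5 in every setting, with log2 fold changes from -1.73 to -1.29 over single libraries left out, and in the Cxcr2-labelled libraries in every setting but 1, given above. In the Bmal1-labelled libraries it passed with DESeq2 alone (log2 -1.14, adjusted p = 0.0332), which moved the count of members called there to 1. Leaving out single libraries gave 1 to 3 members called in the Cxcr4 mutants and 0 to 1 in the Cxcr2-labelled libraries against WT ZT5.

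Counts over all genes moved more. WT ZT13 gave 9 calls, 3 with edgeR and 118 with DESeq2, and 2 to 102 over single libraries left out; 1193 had an unadjusted p under 0.05. The Bmal1-labelled libraries gave 115 calls, 62 with a pseudocount of 0.1, 75 with a mean of at least 10, 36 with edgeR and 263 with DESeq2, and 24 to 190 over single libraries. The Cxcr2-labelled libraries gave 75 calls, 41, 43, 17 and 326 in the same 4 settings, and 19 to 198 over single libraries. The Cxcr4 mutants gave 598 to 945 calls over single libraries. Between the Cxcr4 mutants and the Cxcr2-labelled libraries DESeq2 gave 714 calls and single libraries left out gave 237 to 616. Between Bmal1-labelled and Cxcr2-labelled libraries edgeR gave 5, DESeq2 83 and single libraries 6 to 18, and over all 5 groups single libraries left out gave 555 to 963. Leaving out WT ZT5 replicate 8 gave the highest counts against WT ZT5 in WT ZT13 (102), the Bmal1-labelled (190) and the Cxcr2-labelled libraries (198), and leaving out replicate 5 gave 4, 24 and 23. The Cxcr4 mutants against WT ZT5 gave 608 calls without their replicate 4 and 598 without replicate 5. The cause was not tested.

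Same-numbered libraries had correlations of -0.04 to 0.06 in their deviations from group means over 11 pairs. With groups of 2 or 3 libraries, these values cannot settle whether replicate numbers pair the samples. With the replicate number as a block, 564 genes were called in the Cxcr4 mutants, 34 in the Bmal1-labelled libraries and 23 between Bmal1-labelled and Cxcr2-labelled libraries; 2 members, Hsp90b1 and Calr, were called in the Cxcr4 mutants (Pdia4 adjusted p = 0.256). Of the other genes, the block also ended the calls in the Cxcr4 mutants of Canx (adjusted p = 0.0515), Hyou1 (0.158), Sec63 (0.115), Sec61a1 (0.253), Ppp1r15b (0.137) and Itgal (0.0540), that of Ppp1r15b in the Cxcr2-labelled libraries (0.102), and those of Itgam (0.0550) and Hspa1a (0.0794) between the Cxcr4 mutants and the Cxcr2-labelled libraries.

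Directions turned only for differences near 0 that were called in no setting. Hspa5 in WT ZT13 was -0.11 with quantile normalization, -0.065 with the block and -0.28 to 0.35 over single libraries. Pdia3 was 0.16 with the block in the Bmal1-labelled libraries (-0.55 to 0.22 over single libraries), -0.019 with DESeq2 in the Cxcr2-labelled libraries (-0.12 to 0.38), -0.27 with the block between the Cxcr4 mutants and Bmal1-labelled libraries (-0.23 to 0.55) and 0.16 with the block between Bmal1-labelled and Cxcr2-labelled libraries (-0.64 to 0.14). Pdia4 was -0.28 between the Cxcr4 mutants and Bmal1-labelled libraries with edgeR and with DESeq2 (-0.61 to 0.91). Over single libraries, Pdia3 in the Cxcr4 mutants ranged from -0.21 to 0.29 against WT ZT5 and from -0.22 to 0.10 against Cxcr2-labelled libraries, Calr in the Cxcr2-labelled libraries from -0.21 to 0.14 against WT ZT5, and Hspa5 between the Cxcr4 mutants and Bmal1-labelled libraries from -0.33 to 0.070. Quantile normalization moved the median of all genes from -0.11 to 0.03 in the Cxcr4 mutants. Pdia4, with 1 to 309 reads per library, is limited by depth.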
